A study of Mus musculus with 12 samples.

Results

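The proteins of the cytosolic ribosome were followed as RNA in mouse liver. Genes were chosen by symbol alone, as every gene named Rpl or Rps followed by a number and at most 1 of the letters a or x, together with Rplp0, Rplp1, Rplp2 and Rpsa, with pseudogenes left out. This gave 76 of the 27179 genes in the count table, 46 for the large subunit and 30 for the small subunit. They lie on 19 chromosomes, with 14 on chromosome 7 and 4 on the X chromosome.

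The cytosolic ribosome is built from ribosomal RNA and single copies of nearly all of its proteins, and the small subunit reads the messenger RNA while the large subunit joins the amino acids. In liver it makes the cell's own proteins and those that hepatocytes secrete into blood, such as albumin. The mRNAs of ribosomal proteins belong to the terminal oligopyrimidine (TOP) class. They start with a C and a run of pyrimidines, through which the growth regulator mTORC1 and the protein LARP1 control their translation and stability.

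Male mice, given as 8 weeks old for the diet experiment, were fed a chow diet (CD) or a low-protein diet (LPD) for 1 week and then injected through the tail vein. The injection carried Sleeping Beauty transposase plasmids with either an empty vector (Vec) or c-MET and an N-terminally truncated, active β-catenin (c-MET/β-catenin), both from the EF1α promoter, and the diets were kept. The 4 groups of 3 mice combine each diet with each injection, and their livers were taken when the CD c-MET/β-catenin mice reached their end point. The injection reaches only some hepatocytes, so an injected liver is a mixture of cells with and without the transgenes. The strain is given as a mixed 129/Ola and C57BL/6 background for this model and, in the methods, as C57/Bl3 for tumour studies in general. All values below are bulk RNA of whole liver, 1 library a mouse, although the labels name the cell type as hepatocyte.

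Libraries held 19476209 to 31990267 counts. Levels are in CPM, the counts of a gene relative to a fixed library total, scaled by the trimmed mean of M values (TMM), a factor that keeps most genes level between libraries. As a check of the labels, Glul and Axin2, targets of β-catenin, were at 6634 to 8607 and 64.2 to 94.8 CPM in the CD c-MET/β-catenin libraries, at 2489 to 4110 and 24.0 to 37.1 CPM on LPD, and at no more than 1211 and 11.5 CPM in the Vec libraries. Summed hepatocyte markers were at 59499 to 110370 CPM in every library and those of T and NK cells at no more than 7.13 CPM. Summed cholangiocyte markers reached 121 to 382 CPM in the CD c-MET/β-catenin libraries against 36.8 to 57.6 CPM in the other 9, neutrophil markers reached 8.60 to 17.96 CPM against 2.97 to 6.08 CPM, and stellate cell markers reached 538 and 424 CPM in CD c-MET/β-catenin replicates 1 and 2 against 58.2 to 107 CPM in the other 10. Of 4 erythroid markers tested, 3 were called higher with the oncogenes on CD (median log2 fold change 2.64), 3 were called lower on LPD against CD in the injected livers (median −2.90), and 2 were called lower for the injection by diet interaction (median −3.32). The sum over the whole list ran from 78.9 to 276 CPM with the oncogenes on CD and overlapped that of the other groups. Of 5 nuclear retained and non-polyadenylated RNAs tested, 3 were called lower with the oncogenes on CD (median log2 fold change −1.57), 3 were called higher and 1 lower on LPD against CD in the injected livers (median 1.52), and 1 was called higher for the interaction (median 1.66). The sum over this list on CD was 1054 to 1666 CPM in the injected livers and 726 to 1546 CPM in Vec, which overlap and lean the other way. In bulk tissue, fewer cells of a type and less RNA per cell cannot be told apart, and the part of these cells and RNAs in the results was not tested.

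CD Vec replicate 2 stood apart from the other CD Vec libraries. It had the highest level of its group in 72 of the 75 ribosomal protein genes tested. It also had lower Kupffer cell markers, 79.1 against 115 and 165 CPM, lower endothelial markers, 96.3 against 196 and 175 CPM, and higher nuclear retained and non-polyadenylated RNA, 1546 against 726 and 1032 CPM. Counts of ribosomal protein genes called are given with and without it. Tests of single genes and of other gene lists are given with it only. The table's header also carries a dataset number for each library, and these numbers fall into 3 runs that the labels do not explain. CD c-MET/β-catenin replicates 1 and 2 were the whole of 1 run, LPD Vec replicate 1 made up another with CD Vec replicates 1 and 2, and the other 7 libraries made up the third.

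The start of the transcript is shown because it is where a TOP mRNA carries its pyrimidines. RefSeq (GRCm38.p6) lists promoters for 56 of the 76 genes, with 66 starts. The sequences run from 15 bases before the listed start to 15 bases from it on, 5′ to 3′ on the strand of the gene, and capitals mark runs of at least 6 bases that are each C or T. The genes are those of the ribosome's P stalk and of the largest changes reported here for which a promoter is listed.
Rplp0, chr5:115559452-115559481, plus strand: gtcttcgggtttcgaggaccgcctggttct
Rplp2, chr7:141447636-141447665, plus strand: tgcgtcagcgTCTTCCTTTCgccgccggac
Rpl12, chr2:32961697-32961726, plus strand: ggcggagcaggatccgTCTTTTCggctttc
Rpl41, chr10:128549154-128549183, minus strand: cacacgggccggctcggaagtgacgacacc
Rps12, chr10:23787195-23787224, minus strand: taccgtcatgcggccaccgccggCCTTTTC
Rps4x, chrX:102189377-102189406, minus strand: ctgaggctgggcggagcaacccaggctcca
Rps15a, chr7:118116133-118116162, minus strand: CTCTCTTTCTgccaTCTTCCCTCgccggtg
Rps18, chr17:33955651-33955680, minus strand: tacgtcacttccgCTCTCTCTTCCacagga

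Such a run lay in this window at 36 of the 66 ribosomal protein starts (54.5%) and at 29.2% of all 32851 starts in the table. Listed starts need not be the ones used in liver, and a window without a run says only that these letters are not in it. Within the whole 300 bases of each promoter, CCGGAAG on either strand, the motif of ETS family factors, was found at 24 of 66 starts (36.4%) against 8.86% of all starts. CACGTG, the E-box bound by factors such as MYC, was found at 12.1% against 7.15%, and TATAAA at 9.09% against 13.6%. The ETS-type motif is shown in capitals for the genes above whose promoter holds it. Rps18 holds it at both positions printed.
Rplp2, chr7:141447532-141447560, plus strand: gaaatgtcttcCTTCCGGtgcaccctttt
Rpl41, chr10:128549207-128549235, minus strand: tagtaaggcagCCGGAAGtcgctgtctcg
Rps18, chr17:33955805-33955833, minus strand: agaaggccgaaCCGGAAGttatagctccg
Rps18, chr17:33955723-33955751, minus strand: agaagcaatttCCGGAAGtggacctccgg

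The 76 genes together took about 1% to 2% of each library. Their summed counts were 0.979%, 1.36% and 0.985% of the total in CD Vec replicates 1 to 3. They were 1.94%, 1.82% and 1.5% in CD c-MET/β-catenin. They were 1.23%, 1.36% and 1.41% in LPD Vec and 1.38%, 1.26% and 1.41% in LPD c-MET/β-catenin. By this share of the raw total every CD c-MET/β-catenin library was above the other 9, and the means of both LPD groups lay between those of the chow groups. Such a separation was not particular to these genes. Proteasome subunits took 0.35954% to 0.41112% in CD c-MET/β-catenin and at most 0.35281% in the other 9 libraries. Nuclear subunits of oxidative phosphorylation went the other way, at 0.81473% to 0.86566% against at least 1.0653%. The TMM factors were 0.864 to 0.925 in CD Vec and 1.08 to 1.12 in CD c-MET/β-catenin, and on that scale the groups overlapped in the 76 genes. The summed level of the 76 genes was then 17873, 16238 and 13722 CPM in CD c-MET/β-catenin replicates 1 to 3, and replicate 3 was below CD Vec replicate 2 at 15762, LPD Vec replicate 3 at 14445 and LPD c-MET/β-catenin replicate 3 at 13888 CPM. Group means were 1.11% ± 0.219, 1.75% ± 0.225, 1.33% ± 0.0944 and 1.35% ± 0.0822 (SD, n = 3 each) in the same order. The exact 95% binomial intervals of single libraries were 0.00838 to 0.0112 percentage points wide and cover counting error only. With mitochondrially encoded genes and the 20 genes of highest count left out of the total, group means were 1.51%, 2.38%, 1.79% and 1.78%.

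**Figure D1:**
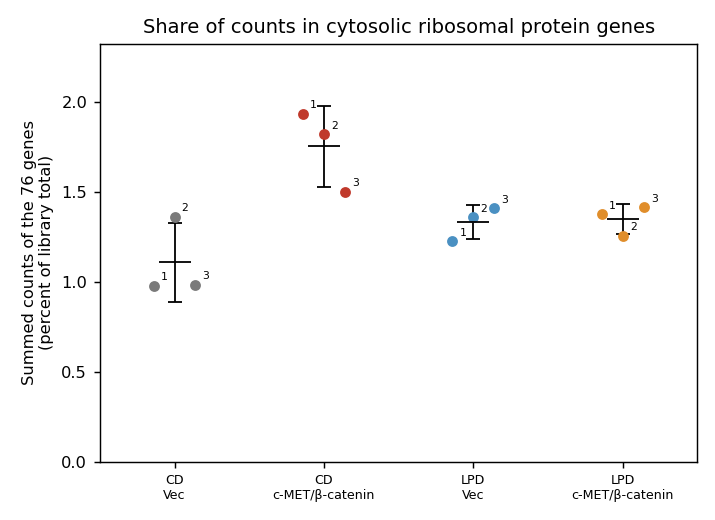
Summed counts of the 76 cytosolic ribosomal protein genes as a percent of each library's total, for the 4 groups. Points are libraries with their replicate number, and bars are the mean and SD of 3 libraries. CD c-MET/β-catenin libraries sit at 1.5% to 1.94%, CD Vec replicate 2 sits at 1.36% above the other CD Vec libraries, and the LPD groups sit at 1.23% to 1.41%.

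Single genes were widely spaced in level. Mean levels over the 12 libraries had a median of 159.6 CPM and a maximum of 462 CPM, and 73 of the 76 genes had at least 50 CPM. Per kilobase of annotated exon, the highest included Rplp1 at 845, Rps18 at 499 and Rps29 at 409 CPM. Rplp1 is an acidic protein of the P stalk, and Rps18 and Rps29 are small subunit proteins. The lowest were Rpl39 at about 0, Rpl29 at 4.79, Rps15a at 20.9 and Rps20 at 29.2 CPM per kilobase. The last 2 have long annotated isoforms, so that their exons sum to 5395 and 3706 bases, which enters their levels per kilobase.

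Rpl39, whose protein lines the exit tunnel of the large subunit, was the only gene of the 76 that did not pass the filter on low counts. It had 0 counts in 9 libraries and 2, 1 and 1 in the others, and a count of 0 allows up to 0.154 CPM in the smallest library. Ribosomal protein genes have many processed pseudogenes, and how reads that map to several places were counted is not given in the sources used here, so levels of single genes are uncertain. The 34 ribosomal protein pseudogenes with a -ps symbol in the table held 5561 counts in all 12 libraries together. An exon of another gene overlaps 20 of the 76 genes.

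The genes moved together across libraries. The correlation of a gene's log2 level with the mean of the other ribosomal protein genes over the 12 libraries had a median of 0.943, and it was above 0.9 for 58 of 75 genes. These values share libraries and scaling and are a description. The lowest were Rpl29 at 0.09, Rpl35a at 0.37, Rps18 at 0.42, Rpl10 at 0.53 and Rps2 at 0.58. The highest group mean was in CD c-MET/β-catenin for 70 of 75 genes and in LPD Vec for the other 5. The lowest was in CD Vec for 54, in LPD c-MET/β-catenin for 18, in CD c-MET/β-catenin for 2 and in LPD Vec for 1.

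**Figure D2:**
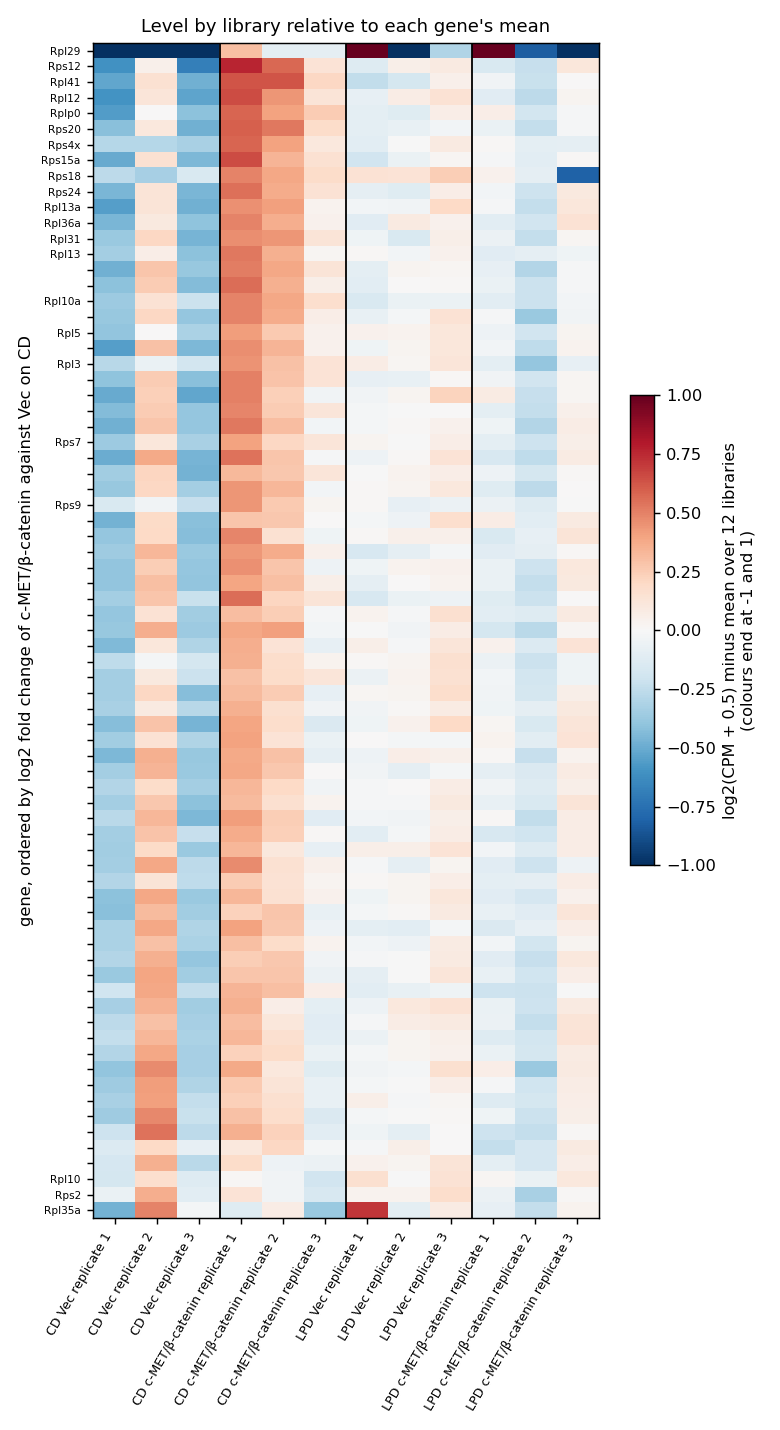
Level of 75 ribosomal protein genes in each of the 12 libraries, as log2(CPM + 0.5) minus the gene's mean over the libraries, with genes ordered by the size of the oncogenes' effect on CD and names given for the genes called in any comparison and for Rpl29, Rpl35a, Rpl10 and Rps2. CD Vec replicates 1 and 3 are below the mean in nearly every gene, CD Vec replicate 2 and CD c-MET/β-catenin replicates 1 and 2 are mostly above it, and Rpl29, Rps18 and Rpl35a break the pattern in single libraries.

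The comparison of oncogene with Vec livers on CD asks what the oncogenes changed under normal feeding. Ribosomal protein mRNAs leaned higher in the CD c-MET/β-catenin livers. Of the 75 genes tested, 18 rose and 0 fell at an adjusted p under 0.05 (edgeR's quasi-likelihood test, Benjamini-Hochberg over all 13947 genes tested). That is 24.0% of them called higher, beside 18.7% of all genes tested called higher and 16.7% called lower. The median log2 fold change was 0.35, with 72 genes above 0 and 3 below, beside a median of −0.01 over all genes tested. At an unadjusted p under 0.05, 35 were higher and 0 lower. In 17 genes every CD c-MET/β-catenin library was above every CD Vec library, beside 22.2% of all genes tested, and in 0 genes below, beside 20.4%. By count of higher calls the family was near the background, and it had no lower calls. Large and small subunit genes had medians of 0.34 and 0.39, with 10 of 45 and 8 of 30 called.

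Rps12, a protein of the head of the small subunit, had the largest fold change among the genes called. Its level was 100.6, 159 and 95.1 CPM in CD Vec and 260.3, 228 and 169 CPM in CD c-MET/β-catenin. The groups did not overlap, although CD Vec replicate 2 came close to CD c-MET/β-catenin replicate 3. The log2 fold change was 0.89 ± 0.21 (SE, adjusted p = 0.00636). On LPD the levels were 140.1, 159 and 163 CPM in Vec and 138, 130.4 and 165 CPM in c-MET/β-catenin.

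The P stalk, which recruits and activates elongation factors, is made of Rplp0, Rplp1 and Rplp2 on a base that includes Rpl12. Rplp0 was at 291, 429.5 and 323 CPM in CD Vec and at 642, 566 and 510.4 CPM in CD c-MET/β-catenin, with no overlap, and rose by 0.72 ± 0.16 on the log2 scale (adjusted p = 0.00494). Rpl12 was at 136, 224 and 143 CPM against 324, 279 and 225 CPM and rose by 0.72 ± 0.20 (adjusted p = 0.0139), with CD Vec replicate 2 just under the lowest injected library. Rplp1 and Rplp2 had log2 fold changes of 0.48 and 0.50 and missed the threshold (adjusted p = 0.0639 and 0.0552). For both, CD Vec replicate 2 lay above CD c-MET/β-catenin replicate 3, at 477 against 433 CPM and at 197 against 172 CPM.

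Rps4x, the X-linked small subunit protein at chrX:102184941-102189391, was the clearest single gene. It was at 103, 103 and 100.2 CPM in CD Vec and at 189, 166 and 135 CPM in CD c-MET/β-catenin. CD Vec replicate 2 did not stand apart in this gene. Its log2 fold change was 0.68 ± 0.13 with the lowest adjusted p of the family, 0.00161.

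Rpl41, the smallest protein of the large subunit, was at 145, 231 and 149 CPM in CD Vec and 322, 323 and 240.1 CPM in CD c-MET/β-catenin (log2 fold change 0.76 ± 0.19, adjusted p = 0.00945). Rps20, at the head of the small subunit, was at 79.0, 114 and 75.5 CPM against 160.0, 152 and 120.4 CPM (0.69 ± 0.16, adjusted p = 0.00639). Rps15a, a small subunit protein, was at 77.6, 122.75 and 81.0 CPM against 174, 139.7 and 123.0 CPM (0.63 ± 0.18, adjusted p = 0.0162). In all 3 the groups did not overlap, and in Rps15a the highest CD Vec library and the lowest injected library were at nearly the same level.

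The other 11 genes that rose had log2 fold changes of 0.39 to 0.61. They were Rps18, Rps24, Rpl13a, Rpl36a, Rpl31, Rpl13, Rpl10a, Rpl5, Rpl3, Rps7 and Rps9. A further 13 genes had adjusted p between 0.05 and 0.1. The genes below 0 were Rpl35a at −0.18, Rps2 at −0.10 and Rpl10 at −0.03, none of which passed the threshold (adjusted p = 0.598, 0.656 and 0.886).

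**Figure D3:**
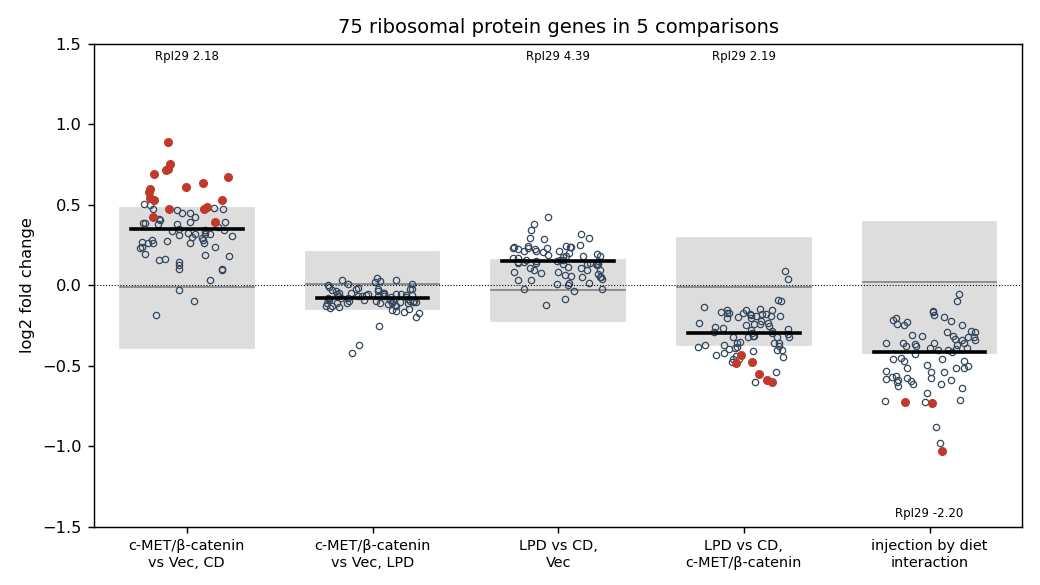
log2 fold changes of 75 ribosomal protein genes in 5 comparisons. Filled points passed an adjusted p of 0.05, thick lines are the medians of the 75 genes (0.35, −0.08, 0.15, −0.30 and −0.41 from left to right), grey boxes and lines are the quartiles and median of all genes tested, and Rpl29, outside the axis in 4 comparisons, is written with its value.

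The count on CD turned on single libraries and on the fit. Length offsets gave 49 genes, beside 19% of all genes called higher, and a fit on only the 2 groups compared gave 5, beside 12.3%. Without CD Vec replicate 2, 66 genes were called, all higher, with a median of 0.57, beside 17.9% of all genes called higher in that fit. In 72 of 75 genes every CD c-MET/β-catenin library was then above both remaining CD Vec libraries, beside 29.4% of all genes tested. Without CD c-MET/β-catenin replicate 1 the genes called were 7, beside 16.6% of all genes called higher, and without CD Vec replicate 1 or 3 they were 8 in each case, beside 16.4% and 17.4%. When the fit allowed for the 3 runs, 0 genes were called, beside 4.6% of all genes called higher, the median was 0.23, and none reached an unadjusted p of 0.05. Within the run that holds both groups, 1 library of each, the median was 0.34 and 72 of 75 genes were higher in the injected library. With total counts in place of TMM, 65 genes were called higher. The median over all genes tested then moved from −0.01 to 0.28 and that of the family to 0.65, and all calls split into 32% higher and 8.64% lower, against 18.7% and 16.7%.

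**Figure D4:**
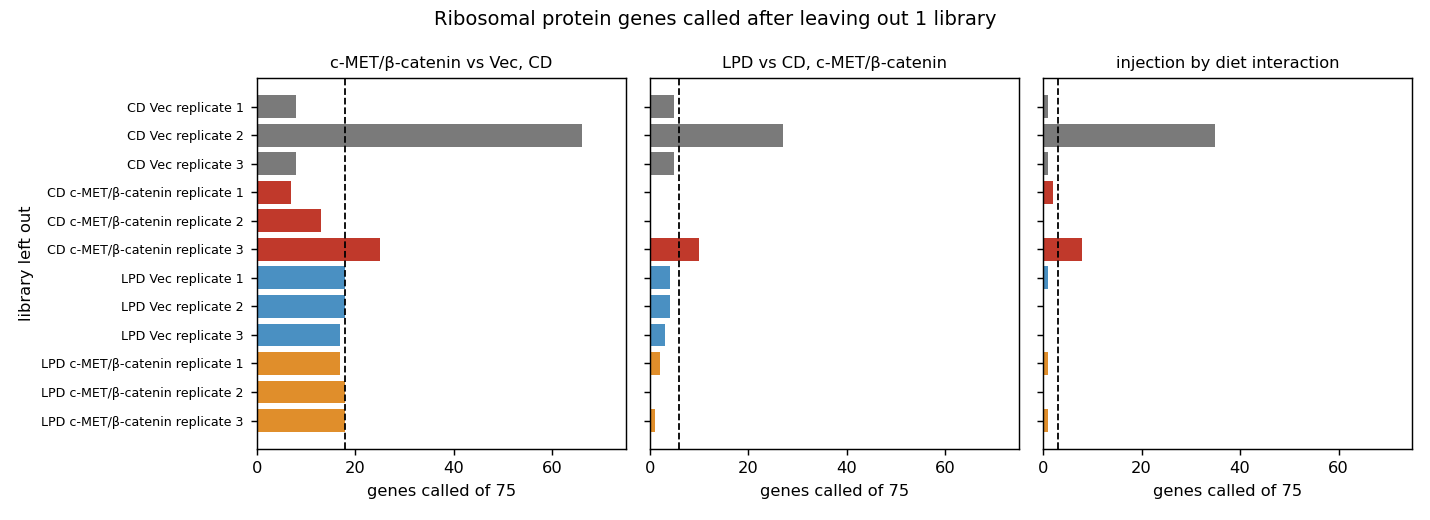
Number of the 75 ribosomal protein genes called at an adjusted p under 0.05 after leaving out each library in turn, for 3 comparisons, with the count from all 12 libraries as a dashed line (18, 6 and 3). Bars are coloured by the group of the library left out. Leaving out CD Vec replicate 2 raised the counts to 66, 27 and 35.

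On LPD the same oncogenes were compared with Vec. No ribosomal protein gene was called by edgeR's quasi-likelihood test, 0 by DESeq2, which called 3.57% of all genes, and 1 was lower at an unadjusted p under 0.05. Of all genes tested 1.32% were called in this comparison, 1.15% higher and 0.165% lower. The median log2 fold change was −0.08, with 68 genes below 0 and 7 above, beside 0.01 over all genes tested. With total counts in place of TMM this median was 0.03, beside 0.12 over all genes tested. Its sign thus depended on the scaling, while it was below the median of all genes tested under both. In 7 genes every c-MET/β-catenin library was below every Vec library, beside 11.6% of all genes tested. Rps12 had a log2 fold change of −0.09 ± 0.21, Rplp0 of 0.01 ± 0.16 and Rps4x of −0.05 ± 0.13. The lowest were Rps18 at −0.42 ± 0.19 (adjusted p = 0.445), Rpl35a at −0.37 ± 0.25 and Rpl3 at −0.25 ± 0.13.

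The effect of the diet without oncogenes was read in the Vec livers, LPD against CD. It shares the CD Vec libraries with the comparison on CD, and each comparison's values are given side by side with no measure of likeness. No ribosomal protein gene was called by edgeR's quasi-likelihood test, 0 by DESeq2, which called 2.43% of all genes, and 3 were higher at an unadjusted p under 0.05. Of all genes tested 0.308% were called, 0.186% higher and 0.122% lower. The median log2 fold change was 0.15, with 70 genes above 0, beside −0.03 over all genes tested. Without CD Vec replicate 1 it was 0.0463 and without replicate 3 it was 0.055. Without CD Vec replicate 2 it was 0.38, with 0 genes called in each case, and in 73 of 75 genes all LPD Vec libraries were above both remaining CD Vec libraries, beside 16.6% of all genes tested. With all libraries this held for 5 genes, Rpl3, Rpl4, Rpl5, Rps18 and Rps4x, beside 8.13% of all genes tested, and the reverse held for 0 genes, beside 9.02%. Rpl3, a protein near the peptidyl transferase centre of the large subunit, was at 208, 240.0 and 221 CPM in CD Vec and at 264, 255 and 274 CPM in LPD Vec (log2 fold change 0.25 ± 0.13, adjusted p = 0.580).

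The effect of the diet in the presence of the oncogenes was read in the c-MET/β-catenin livers, LPD against CD. Of 75 genes 6 fell and 0 rose, which is 8%, below the 11.3% of all genes tested that were called lower, with 8.66% called higher. The median log2 fold change was −0.30, with 72 genes below 0, beside −0.01 over all genes tested. In 30 of 75 genes every LPD c-MET/β-catenin library was below every CD c-MET/β-catenin library, beside 20.1% of all genes tested. At an unadjusted p under 0.05, 26 were lower and 0 higher. All 6 genes called were also among the 18 called on CD, a comparison that shares the CD c-MET/β-catenin libraries.

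The 6 genes were Rps18 (−0.60 ± 0.19, adjusted p = 0.0421), Rpl41 (−0.59 ± 0.19), Rps20 (−0.55 ± 0.16), Rpl3 (−0.48 ± 0.13), Rpl10a (−0.48 ± 0.14) and Rps4x (−0.43 ± 0.13). Rpl3 was at 344, 309 and 276 CPM in CD c-MET/β-catenin and at 236, 193 and 238 CPM in LPD c-MET/β-catenin, with no overlap (adjusted p = 0.0225, the lowest of the 6). Rpl10a, a protein of the L1 stalk that helps spent tRNA leave, was at 164, 152 and 130.7 CPM on CD and 107.55, 100.02 and 114 CPM on LPD. The LPD c-MET/β-catenin libraries also had fewer cholangiocyte and stellate marker RNAs than CD c-MET/β-catenin replicates 1 and 2, and the 7 proliferation genes were all called lower there, with a median log2 fold change of −2.09. The part of these in the result was not tested.

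These calls were also set by single libraries and by the fit. Total counts in place of TMM gave 14 genes, length offsets 13 and DESeq2 11, beside 12.6%, 11.9% and 13.6% of all genes called lower. A fit on only the groups compared gave 2, beside 9.46%, and the replicate number as a block gave 1, beside 9.56%. The count was 27 without CD Vec replicate 2, beside 14.1% of all genes called lower in that fit, and 10 without CD c-MET/β-catenin replicate 3, beside 10.7%. It was 3 without LPD Vec replicate 3, beside 10.3%, and 2 or 1 with LPD c-MET/β-catenin replicate 1 or 3 left out, beside 7.08% and 6.27%. It was 0 when LPD c-MET/β-catenin replicate 2 or CD c-MET/β-catenin replicate 1 or 2 was left out, beside 7.83%, 9.54% and 9.23%. With the run term it was 0 with a median of −0.08, beside 3.16%. Within the run that holds 1 CD and 3 LPD libraries of injected mice the median was −0.08, with 23 of 75 genes above 0.

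The interaction asks whether the oncogenes' effect differed between the diets. It is the effect of the oncogenes on LPD, as a log2 fold change, less the same effect on CD. All 75 genes had a value below 0, with a median of −0.41 beside 0.02 over all genes tested. Of them 3 were called, or 4%, beside 4.42% of all genes tested that were called lower, 4.49% called higher and 8.91% in either direction. At an unadjusted p under 0.05, 24 were lower and 0 higher. The 3 were Rps18 at −1.03 ± 0.27 (adjusted p = 0.0357), Rps4x at −0.73 ± 0.18 (adjusted p = 0.0283) and Rpl3 at −0.73 ± 0.18 (adjusted p = 0.0330). For Rps4x the means were 102 ± 1.76 and 163 ± 26.7 CPM in Vec and c-MET/β-catenin on CD and 125 ± 8.64 and 121 ± 5.40 CPM on LPD (SD, n = 3 each).

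Rps12 had an interaction of −0.98 ± 0.30, Rpl12 of −0.88 ± 0.28 and Rplp0 of −0.71 ± 0.23, and they missed the threshold (adjusted p = 0.0597, 0.0687 and 0.0751). Total counts in place of TMM gave 15 genes, length offsets 12, DESeq2 9 and the replicate block 0, beside 6.47%, 4.74%, 7.73% and 2.89% of all genes called lower. Leaving out CD Vec replicate 2 gave 35 genes called and a median of −0.66, beside 3.72% of all genes called lower in that fit. With CD c-MET/β-catenin replicate 3 left out the count was 8, beside 4.9%, and with any LPD library it was 0 or 1, beside 1.43% to 2.91%. With CD Vec replicate 1 or 3 left out it was 1, beside 3.42% and 3.98%, and with CD c-MET/β-catenin replicate 1 or 2 it was 2 and 0, beside 3.69% and 3.4%. With the run term the median was −0.26 and 0 genes were called, beside 0.38%, while 3 were lower at an unadjusted p of 0.05. Within the run that holds all 4 groups it was −0.44.

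**Figure D5:**
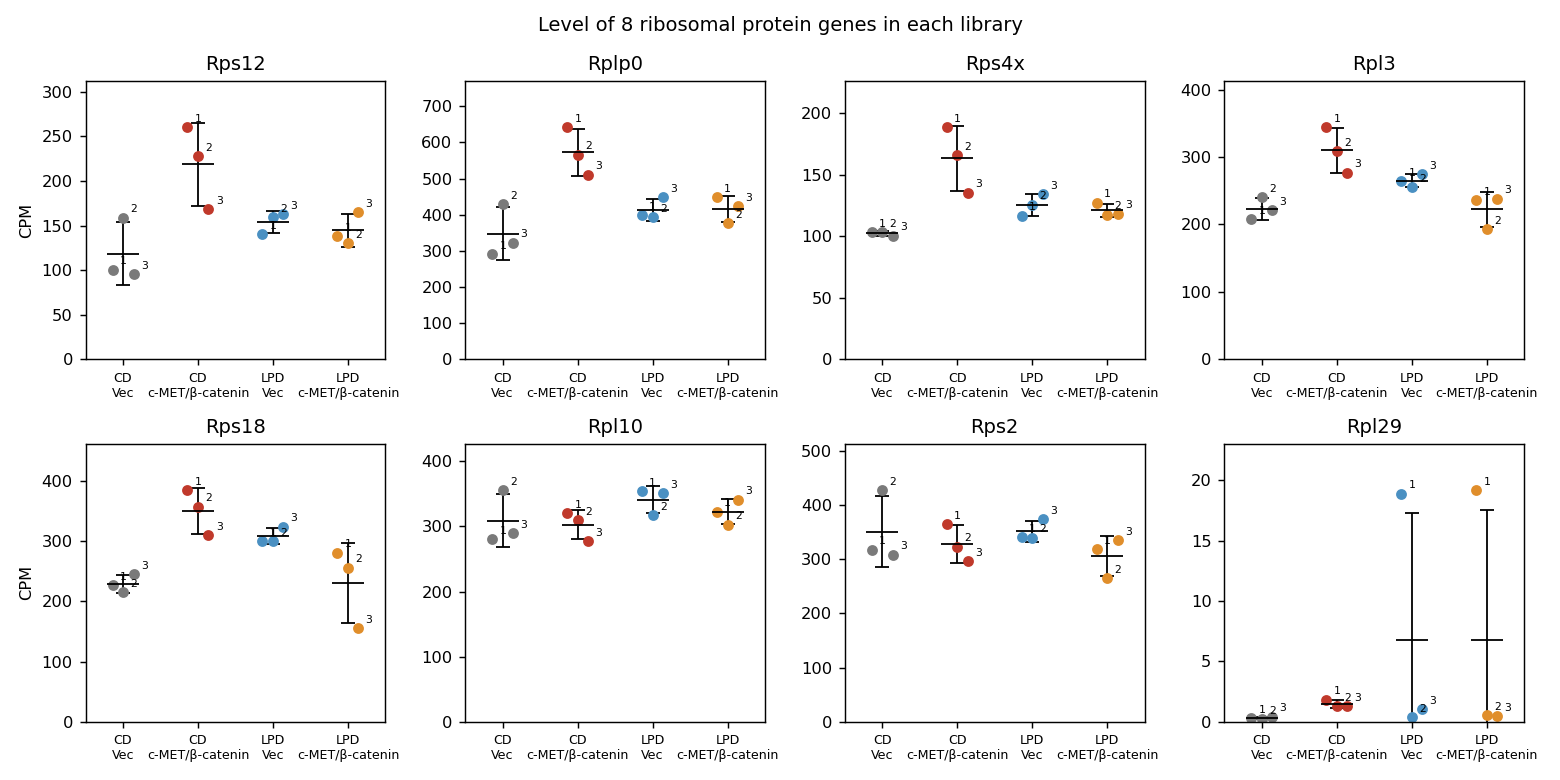
Level in CPM of 8 ribosomal protein genes in each library, with the replicate number at each point and the mean and SD of 3 libraries. Rps12, Rplp0, Rps4x and Rpl3 are highest in CD c-MET/β-catenin. Rps18 is low in LPD c-MET/β-catenin replicate 3, Rpl10 and Rps2 overlap between the CD groups, and Rpl29 is high in 1 library of each LPD group.

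Rps18 and Rpl29 had values set by single libraries. Rps18, a small subunit protein at chr17:33951998-33955665 with an exon that overlaps Vps52 on the other strand, was at 227, 216 and 245 CPM in CD Vec and at 385, 357 and 309 CPM in CD c-MET/β-catenin. It was at 300.2, 299.95 and 324 CPM in LPD Vec and at 281, 255 and 156 CPM in LPD c-MET/β-catenin. In LPD c-MET/β-catenin replicate 3 it was the lowest of all 12 libraries, where the family as a whole was highest of its group in 68 of 75 genes. Rpl29, a large subunit protein at chr9:106428889-106431568, had 394 counts in LPD Vec replicate 1 and 393 in LPD c-MET/β-catenin replicate 1, and 4 to 63 counts in the other 10 libraries. No fold change of it passed the test, and the standard errors were 1.35 to 1.82 on the log2 scale for the 4 comparisons of groups. Rpl35a, of the large subunit, was at 69.8 CPM in LPD Vec replicate 1 and 59.96 CPM in CD Vec replicate 2 against 30.3 to 45.0 CPM elsewhere. Without Rpl29 and Rps18 the counts of genes called on CD, for diet in c-MET/β-catenin and for the interaction were 17, 5 and 2.

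To see which genes moved relative to the family, libraries were also scaled to their summed ribosomal protein counts, a choice made after the data were seen. All genes called on CD then split into 9.06% higher and 31.1% lower. On CD, Rps12 was then higher by 0.52 ± 0.15 (adjusted p = 0.0171) and Rps2, a small subunit protein at the entry of the mRNA channel, was lower, at −0.47 ± 0.15 (adjusted p = 0.0266). Rps2 was at 318, 428 and 309 CPM in CD Vec and at 365, 323 and 297 CPM in CD c-MET/β-catenin. The next were Rpl41 at 0.39 ± 0.15 (adjusted p = 0.0521) and Rpl10 at −0.41 ± 0.16 (adjusted p = 0.0555). Rpl10, which completes the large subunit late in its assembly, was at 281, 356 and 290 CPM in CD Vec and 321, 309.9 and 277 CPM in CD c-MET/β-catenin. No gene of the family was called in the other 4 comparisons under this scaling, where at an unadjusted p under 0.05 there were 0 on LPD and 1 in each of the others.

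Proteins of the same ribosome whose symbols the rule does not cover were tested beside the family. Rps3a1, Fau, whose small subunit protein is made as a fusion with a ubiquitin-like sequence, and Rack1, a signalling scaffold on the small subunit, were not called in any of the 5 comparisons by edgeR's quasi-likelihood test, and 1 of them, Rack1, had an unadjusted p under 0.05, on CD. On CD their log2 fold changes were 0.24 ± 0.17, 0.02 ± 0.18 and 0.46 ± 0.19.

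Of 8 paralogs of ribosomal proteins 5 were tested, and 2 were called on CD. Rpl22l1, a paralog of Rpl22, was at 23.4, 39.7 and 33.3 CPM in CD Vec and 69.3, 60.2 and 54.7 CPM in CD c-MET/β-catenin. It was at 31.0, 37.0 and 38.3 CPM in LPD Vec and at 36.6, 20.9 and 27.1 CPM in LPD c-MET/β-catenin. CD c-MET/β-catenin was above the other 9 libraries. It rose by 0.93 ± 0.22 on CD (adjusted p = 0.00605), had −1.13 ± 0.22 for diet in c-MET/β-catenin (adjusted p = 0.00490) and −1.27 ± 0.31 for the interaction (adjusted p = 0.0283). Rpl22 itself was at 114, 143 and 118 CPM in CD Vec and at 134, 144 and 122.77 CPM in CD c-MET/β-catenin (0.10 ± 0.13, adjusted p = 0.591).

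Rps27l, a paralog of Rps27 known as a target of p53, fell on CD by 0.41 on the log2 scale (log2 fold change −0.41 ± 0.14, adjusted p = 0.0375), from 125, 161 and 111 CPM to 99.7, 104 and 95.4 CPM. Rpl7l1, Rpl36al and Rps4l were called in no comparison by the same test. Rpl5 and Rpl11 bind Mdm2, the ligase that removes p53, when ribosome assembly is disturbed. On CD Rpl5 rose by 0.48 ± 0.14 (adjusted p = 0.0208) and Mdm2 by 0.59 ± 0.15 (adjusted p = 0.00930), while Rpl11 had 0.23 ± 0.16 (adjusted p = 0.304). Of the 18 ribosomal protein genes listed as mutated in Diamond-Blackfan anemia, 4 rose on CD, which is 22.2%, near the 18.7% of all genes called higher, and none was called elsewhere. They were Rps24, Rpl5, Rpl31 and Rps7.

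By TMM-scaled fold change, other genes of protein synthesis did not all lean the same way on CD. Of 15 translation factors with TOP mRNAs none was called in any comparison by edgeR's quasi-likelihood test, and their median on CD was 0.06, with 1 gene higher at an unadjusted p under 0.05. Their share of raw counts was 0.518% to 0.548% in CD Vec and 0.643% to 0.707% in CD c-MET/β-catenin. In the LPD groups it was 0.610% to 0.660%. Eef1a1, the factor that brings tRNA to the ribosome, had −0.06 ± 0.13 on CD. None of 6 snoRNA host genes with TOP transcripts and none of 15 genes of RNA polymerase I, which makes ribosomal RNA, was called in any comparison, with medians of −0.25 and −0.06 on CD, and 1 and 2 genes with an unadjusted p under 0.05 there. Of 43 ribosome biogenesis factors 1 rose and 2 fell on CD, with a median of −0.19. CD Vec replicate 2 was high in some genes of these lists. Nop58 was at 22.6, 95.1 and 17.3 CPM in CD Vec and 60.6, 33.4 and 36.6 CPM in CD c-MET/β-catenin. In CD Vec, Polr1b was at 18.4, 43.7 and 19.15 CPM and Gas5 at 58.05, 115.7 and 63.9 CPM. Others did not stand apart, such as Eif6 at 76.9, 78.4 and 71.8 CPM. The medians of these lists were not taken without CD Vec replicate 2. Of all genes tested 35.4% were called on CD in either direction.

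In the mTORC1 list of 16 genes 3 rose and 1 fell on CD, beside 18.7% and 16.7% of all genes tested, so that by count the list was near or below the background. Eif4ebp1, a repressor of translation that mTORC1 inactivates, rose by 0.83 ± 0.18 (adjusted p = 0.00370). Ddit4 and Sesn2, which restrain mTORC1 under stress, rose by 2.04 ± 0.57 and 0.86 ± 0.23 (adjusted p = 0.0162 and 0.0141), and Deptor, a subunit that inhibits mTOR, had −1.40 ± 0.31 (adjusted p = 0.00476). Ddit4 was at 63.1 CPM in CD c-MET/β-catenin replicate 1, 14.8 and 15.3 CPM in replicates 2 and 3, and 6.35 to 24.97 CPM in the other 9 libraries. Deptor was at 80.8, 34.7 and 62.0 CPM in CD Vec and 13.4, 28.5 and 25.7 CPM in CD c-MET/β-catenin. It was higher on LPD than on CD in c-MET/β-catenin livers, by 1.44 ± 0.31 (adjusted p = 0.00826), and Ddit4 was lower, at −1.92 ± 0.56 (adjusted p = 0.0328). The interaction of Ddit4 was −2.85 ± 0.79 (adjusted p = 0.0473).

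The proteins of the mitochondrial ribosome, which are encoded in the nucleus, leaned the other way from those of the cytosolic one. Of 77 tested, 1 rose and 30 fell on CD, with a median of −0.35, beside 18.7% and 16.7% of all genes tested. Of 81 nuclear subunits of oxidative phosphorylation, 1 rose and 70 fell on CD with a median of −0.77, and 37 rose and 0 fell for diet in c-MET/β-catenin with a median of 0.45, beside 8.66% and 11.3% of all genes tested. Mitochondrially encoded genes took 2.61% to 2.72% of counts in CD c-MET/β-catenin and 3.00% to 4.43% in the other 9 libraries. Of 38 proteasome subunits tested 2 rose on CD, with a median of −0.05, below the background of 18.7%. The 7 proliferation genes all rose on CD, with a median of 3.38, and 3 of them rose on LPD, with a median of 1.86. On LPD against CD in the injected livers all 7 fell, with a median of −2.09, and 1 was called lower for the interaction, with a median of −1.56.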

How the data were processed

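Bulk liver RNA of 12 mice in 4 groups of 3 was sequenced. The values are whole-number read counts per gene, deposited by the authors without normalization. Reads had been aligned to mm10 with HISAT2 and counted with featureCounts under Entrez identifiers, and versions, the strand setting and the treatment of multi-mapping reads are not given in the sources used here. The labels name depletion of ribosomal RNA and the methods name selection of mRNA. Column names call the chow samples HPD, and the labels' reading as chow was kept. Groups and replicate numbers came from the sample titles, which call Vec WT.

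Symbols were matched through RefSeq GRCm38.p6 (25275 genes) and GENCODE M21 (18 more). All 4 groups entered 1 fit in R 4.3.3 with edgeR 4.0.16 (TMM factors, filterByExpr, robust quasi-likelihood test). Genes tested numbered 13947, and the biological coefficient of variation was 23.2%. Adjustment followed Benjamini and Hochberg (Benjamini-Hochberg) over all of them, and the calling threshold was 0.05. Fold changes are log2 values of fitted counts, CPM were computed from the deposited counts, and exon length is the union of basic GENCODE exons. Of the members 75 were tested. DESeq2 1.42.0, other scalings, trends in length and GC content (known for 97.6% of genes tested), a term for runs of dataset numbers split at gaps of at least 10, the replicate number as a block and leaving out each library served as alternatives. The pipeline was tested on simulated counts. Genes named are up to 8 called members with the largest change in each direction per comparison, the 4 highest and 4 lowest per kilobase, untested members, paralogs, the P stalk, proteins outside the symbol rule and the leading called genes of other lists. Values of some single genes are not reported here. Rps2, Rpl10, Rpl35a, Rpl22, Rpl4, Rpl5, Rpl11, Mdm2 and the remaining called members were named after their values were seen. The members and lists were chosen with earlier results of these data known. P-values measure the spread between single mice.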

Additional observations from a re-analysis of the deposited data

Results flagged for a closer look

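Chow and low-protein livers differed in their response to c-MET/β-catenin, by the injection by diet interaction (edgeR's quasi-likelihood test), in 3 of 75 ribosomal protein genes tested and in 2 other genes named in the text. The 3 are 4% of the family, below the 4.42% of all genes tested that were called lower for the interaction. No ribosomal protein gene was called with the run term or with the replicate block. With 1 library left out the count was 0 to 35. The interactions on the log2 scale were −0.73 for Rps4x, −1.03 for Rps18 and −0.73 for Rpl3. They were −1.27 for Rpl22l1 and −2.85 for Ddit4. The value of Rps18 draws on LPD c-MET/β-catenin replicate 3, at 156 CPM, and that of Ddit4 on CD c-MET/β-catenin replicate 1, at 63.1 CPM.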

How the results depend on the processing

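Counts of ribosomal protein genes called and medians of their log2 fold changes are given for 5 comparisons, in the order oncogenes on CD, oncogenes on LPD, diet in Vec, diet in injected livers, and the interaction. With all libraries they were 18, 0, 0, 6 and 3. Shares of all genes called are given as higher on CD, lower for diet in injected livers and lower for the interaction, and were 18.7%, 11.3% and 4.42%. DESeq2's size factors, TMM without the family, no low count filter and GC offsets left each count within 1.5 times its value. With total counts only they were 65, 0, 0, 14 and 15, with medians of 0.65 on CD and 0.0301 on LPD (shares 32%, 12.6% and 6.47%). Length offsets gave 49, 0, 0, 13 and 12 (19%, 11.9% and 4.74%), and the DESeq2 Wald test 24, 0, 0, 11 and 9 (20%, 13.6% and 7.73%). Fits on only the groups compared gave 5 on CD (12.3%) and 2 for diet in injected livers (9.46%). The run term gave 0 in all 5, with a median of −0.0766 for diet in injected livers (4.6%, 3.16% and 0.38%). Scaling to the summed members, chosen after the data were seen, gave 2, 0, 0, 0 and 0, and medians near 0 by construction, at −0.00999, 0.0102, −0.000959, 0.00874 and 0.0426. All calls then split on CD into 9.06% higher and 31.1% lower. With no low count filter 4 genes were called for diet in injected livers (7.35%).

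With the replicate number as a block the counts were 15, 0, 0, 1 and 0 (17.4%, 9.56% and 2.89%). In their deviations from group means, 18 same-numbered pairs of libraries had correlations of −0.183 to 0.198, with a median of −0.027. The 36 other pairs had −0.266 to 0.321, with a median of 0.025. Deviations from a mean of 3 libraries are tied to each other, so these values cannot decide whether replicate numbers pair the samples.

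Leaving out 1 library gave 7 to 66 genes on CD (medians 0.25 to 0.57), 0 on LPD (−0.15 to −0.02), 0 for diet in Vec (0.0463 to 0.379), 0 to 27 for diet in injected livers (−0.39 to −0.21) and 0 to 35 for the interaction (−0.66 to −0.31). The cause of these differences was not tested. Of the named genes that were called, Rps9 on CD changed sign, to −0.009992 ± 0.15 (SE), when scaled to the summed members. That scaling shifts the fold changes on CD downward, and the median over all genes tested moved from −0.01 to −0.40. The change of sign therefore does not bear on the call of Rps9. Rpl39, with 0 to 2 counts a library, was not tested.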
